A study of Drosophila melanogaster with 9 samples.

Results

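The genes described here are those of the Notch pathway and of the Enhancer of split complex, written E(spl). They were taken by symbol: every row whose symbol begins with E(spl), and the named receptor, ligands, enzymes, cofactors and targets of the pathway, which gave 35 of the 15340 genes in the table. By role they are the receptor N, the ligands Dl and Ser, 2 genes of ligand endocytosis, 2 of receptor glycosylation, 5 of receptor cleavage, 4 nuclear effectors and co-factors, 4 modulators of trafficking and related steps, 7 E(spl) bHLH repressors, Hey, and 7 genes of the Bearded family. Of the listed symbols, 8 matched no row, among them Bob, lgd and the short names of the complex, whose genes m2, m4, m6 and malpha are in the table under their E(spl) names.

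RNA was sequenced from ventral nerve cords (VNCs) of late L3 Drosophila larvae of 3 genotypes, with 3 biological replicates each (A, B and C). All 9 libraries carried nab-GAL4, UAS-prosperoRNAi and UAS-dicer2, so RNAi against prospero, whose loss gives tumours of dedifferentiated neuroblasts (NBs), called dNBs, was meant to act in every VNC, the control included. The genotype *nab>prosRNAi, chinmo* also carried UAS-chinmoFL, *nab>prosRNAi, chinmoRNAi* also carried UAS-chinmoRNAi, and *nab>prosRNAi* carried neither. They are called *chinmo*, *chinmoRNAi* and *nab>prosRNAi* VNCs from here on. Crosses grew at 18°C for 7 days, VNCs were dissected 3 days after the shift to 29°C, and each replicate pooled 51 to 82, 58 to 78 and 57 to 79 brains for the 3 genotypes in that order. The driver, a GAL4 trap of the nab gene, acts in NBs, which are a part of the cells of the whole VNCs that were sequenced. VNCs with intact prospero were not analysed here.

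Notch is a receptor that is cut when a ligand on a neighbouring cell, Delta or Serrate, pulls on it. The freed intracellular part enters the nucleus, binds Su(H) and Mastermind, and switches on the E(spl) genes, most of which encode bHLH repressors that act with Groucho. In some larval NBs this signal sustains self-renewal. When a ganglion mother cell divides, the signal separates the fates of the sister neurons, since Numb and Sanpodo make 1 daughter receive it and the other not.

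The libraries held 34.7 to 40.5, 30.7 to 39.3 and 35.6 to 43.4 M reads on genes in *chinmo*, *chinmoRNAi* and *nab>prosRNAi* VNCs. The values are normalized counts, reads divided by a size factor for the library. The gene chinmo had 71836, 89792 and 81295 normalized counts in *chinmo* VNCs, 5427, 6330.2 and 4518 in *chinmoRNAi* VNCs and 8190.1, 8533 and 8819 in *nab>prosRNAi* VNCs, the highest and the lowest where the labels put them. The gene pros, the target of the RNAi that all VNCs share, was present in every library and differed between genotypes, with 8607, 10751 and 9584 in *chinmo* VNCs, 35040.2, 42387 and 31510.1 in *chinmoRNAi* VNCs and 17406, 19998 and 15859 in *nab>prosRNAi* VNCs. It was lower in *chinmo* VNCs (log2 fold change -0.88 ± 0.11, adjusted p = 0.0046) and higher in *chinmoRNAi* VNCs (1.03 ± 0.15, adjusted p = 0.0027), both over *nab>prosRNAi* VNCs by limma, and the part of this difference in the results below was not tested. Transcripts of Dcr-2, in which the endogenous gene and the UAS-dicer2 transgene cannot be told apart, were at 149980 to 184179 in *chinmo* VNCs, 21190 to 27234 in *chinmoRNAi* VNCs and 73432 to 97186 in *nab>prosRNAi* VNCs. The 6 NB markers mira, dpn, wor, ase, grh and insc were present in every library, with a summed level of 99571 to 117612 in *chinmo*, 58448 to 75868 in *chinmoRNAi* and 117965 to 132249 in *nab>prosRNAi* VNCs. In *chinmo* over *nab>prosRNAi* VNCs these markers did not move together. There mira, the largest term of the sum, was called lower (-0.46 ± 0.13, adjusted p = 0.049 by limma). The others had no call, at -0.48 for insc, -0.14 for grh, 0.04 for ase, 0.17 for dpn and 0.28 for wor. For 6 neuron markers, among them elav and brp, the sums were 15627 to 27989 in *chinmo* VNCs, 56435 to 77060 in *chinmoRNAi* VNCs and 34126 to 45927 in *nab>prosRNAi* VNCs. VNCs of the 3 genotypes thus differed in the balance of NB and neuron transcripts, and in RNA of whole VNCs fewer cells of a type and less RNA per cell cannot be told apart.

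Chinmo is a transcription factor of early temporal identity that part of the dNBs keep, and the comparisons asked how pathway transcripts differ when it is overexpressed or depleted in the tumours. In *chinmo* over *nab>prosRNAi* VNCs, none of the 34 members tested was higher and 10 were lower, or 29.4%, where 9.74% of all genes were called higher and 8.26% lower. In *chinmoRNAi* over *nab>prosRNAi* VNCs, 5 members (14.7%) were higher and 8 (23.5%) were lower, where 17.9% and 14.1% of all genes were called. Set against each other, *chinmo* over *chinmoRNAi* VNCs had 5 members higher (14.7%) and 11 lower (32.4%), where 19.9% and 22.7% of all genes were called. With TMM scaling the split in this last comparison was 9 higher and 10 lower, by quantile normalization 8 and 9, and with the transcript length trend removed 13 and 11. The split over all genes moved as well, from 2305 higher and 2626 lower to 2954 and 2381 with TMM. It was 2945 and 2186 by quantile normalization and 3448 and 2689 with the length trend removed. A call is an adjusted p under 0.05 by limma with Benjamini-Hochberg adjustment over all genes tested, and fold changes are log2 values of the normalized count plus 1, given with the standard error. Any 2 of these comparisons share the libraries of 1 genotype. Without *nab>prosRNAi* replicate A or B, 4 and 2 members were lower in *chinmo* VNCs and 4 and 4 in *chinmoRNAi* VNCs. Over all genes, 913 were lower in *chinmo* VNCs with no library left out, and 406 and 234 in these fits. In *chinmoRNAi* VNCs 1617 were lower with no library left out, and 734 and 697 in these fits. The count of members lower in *chinmo* VNCs was 6 without *nab>prosRNAi* replicate C and 5 without *chinmo* replicate A or B. In *chinmoRNAi* VNCs, 3 members were higher without *chinmoRNAi* replicate B or *nab>prosRNAi* replicate A or B. For all genes those fits gave 517, 485 and 576 lower in *chinmo* VNCs. They gave 1587, 1315 and 1285 higher in *chinmoRNAi* VNCs, against 2048 with no library left out. Every called member kept its direction under each alternative tried.

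The members higher in *chinmoRNAi* than in *nab>prosRNAi* VNCs were fng, kuz, Hey, E(spl)m6-BFM and E(spl)mbeta-HLH. The 8 lower were N, Dl, neur, spdo, Su(H), gro, E(spl)mgamma-HLH and E(spl)m8-HLH. In *chinmo* VNCs the 10 lower were fng, O-fut1, kuz, aph-1, mam, E(spl)m7-HLH, E(spl)m4-BFM, E(spl)m6-BFM, E(spl)malpha-BFM and Tom. At an unadjusted p under 0.05, 1 member was higher in *chinmo* VNCs, where 17.1% of all genes were, and 15 were lower, where 18.6% of all genes were. On the recovered reads the count of members called higher there was 0 by edgeR and 1 (Dl) by DESeq2, where 12.1% and 15.3% of all genes were called. Lower there were 8 members by edgeR and 11 by DESeq2, where 6.73% and 13.4% of all genes were called.

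**Figure D1:**
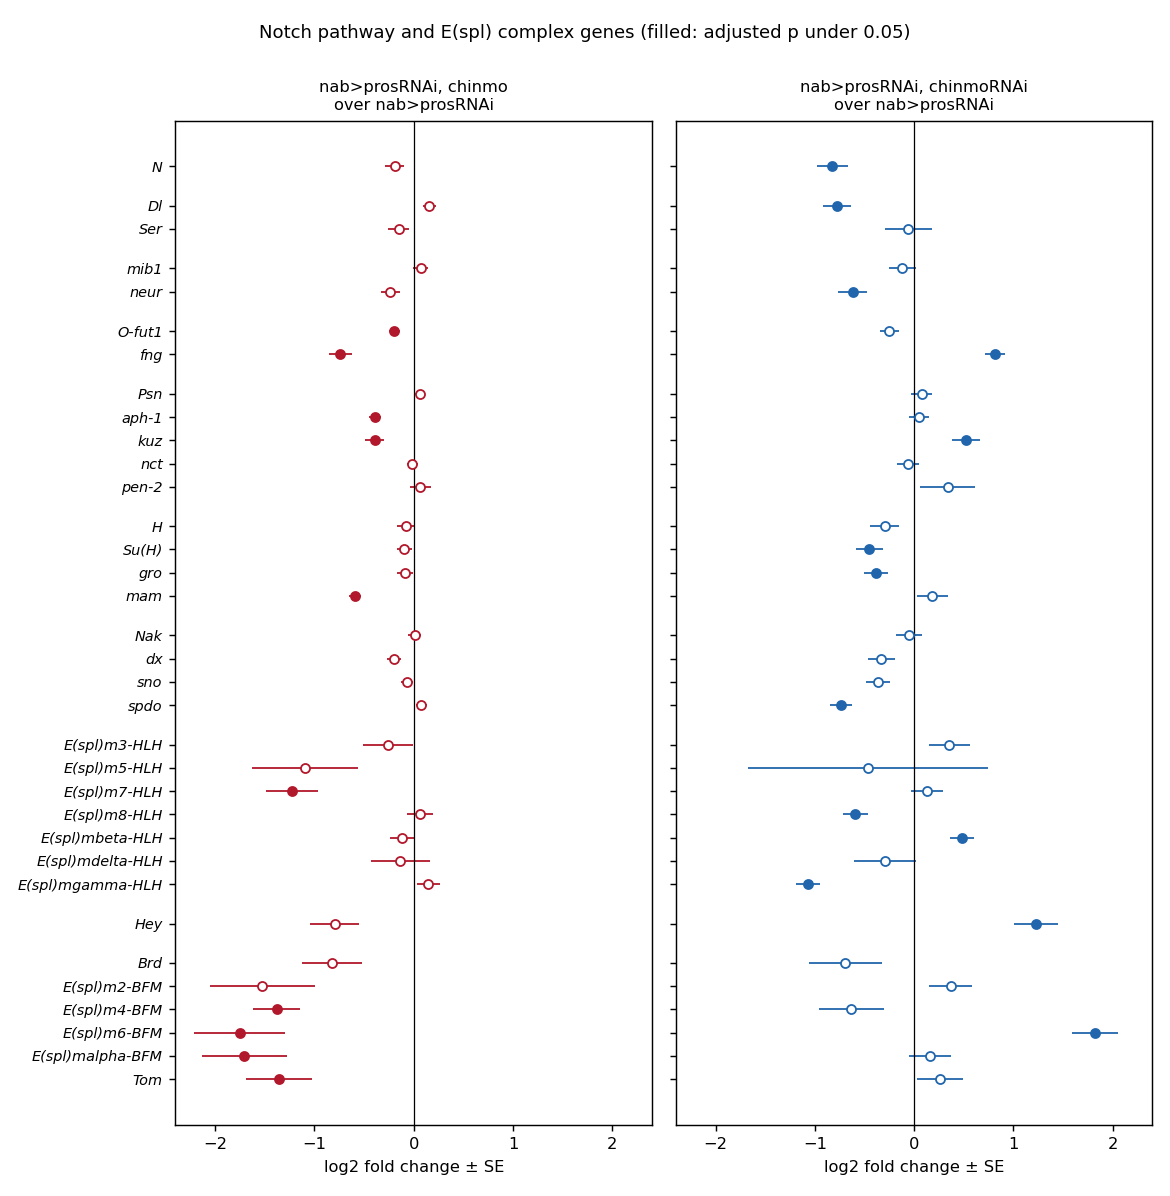
Log2 fold changes with standard errors (horizontal axis) of the 34 members tested, by role from the receptor at the top to the Bearded family at the bottom, for *chinmo* over *nab>prosRNAi* VNCs (left) and *chinmoRNAi* over *nab>prosRNAi* VNCs (right), n = 3 libraries a genotype. Filled points passed the adjusted threshold: 10 on the left, all below 0, and 13 on the right, 5 above 0 and 8 below.

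The receptor and its main ligand were both lower in *chinmoRNAi* VNCs. N, the receptor, had 9249, 8302 and 6289.7 normalized counts in *chinmoRNAi* VNCs, 11128, 11805 and 13687 in *chinmo* VNCs and 14341, 14651 and 12765 in *nab>prosRNAi* VNCs. Each *chinmoRNAi* library lay below every other library, while *chinmo* and *nab>prosRNAi* VNCs overlapped. The log2 fold change was -0.82 ± 0.15, adjusted p = 0.0063 for *chinmoRNAi* and -0.19 ± 0.09, adjusted p = 0.19 for *chinmo* over *nab>prosRNAi* VNCs. N was higher in *chinmo* than in *chinmoRNAi* VNCs (0.63 ± 0.16, adjusted p = 0.017), a call that was lost without *chinmo* replicate C (0.47, adjusted p = 0.060; between 0.014 and 0.060 with each library left out in turn).

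Delta (Dl) fell with the receptor in *chinmoRNAi* VNCs, while in *chinmo* VNCs their signs differed and neither was called. Dl had 2565, 2472 and 1837 normalized counts in *chinmoRNAi* VNCs, 4193, 4339 and 4447 in *chinmo* VNCs and 4017, 4055 and 3584 in *nab>prosRNAi* VNCs. The *chinmoRNAi* libraries were the lowest, and the *chinmo* libraries were all above the *nab>prosRNAi* ones. Dl fell in *chinmoRNAi* VNCs (log2 fold change -0.77 ± 0.14, adjusted p = 0.0061) and was higher in *chinmo* than in *chinmoRNAi* VNCs (0.93 ± 0.14, adjusted p = 0.0019), and the difference of *chinmo* from *nab>prosRNAi* VNCs was 0.16 ± 0.06, adjusted p = 0.13. Serrate (Ser), the other ligand, had 664, 552 and 657 in *chinmo*, 753, 868 and 445 in *chinmoRNAi* and 742, 656 and 677 in *nab>prosRNAi* VNCs. These ranges overlapped, and the log2 fold change of Ser was -0.06 ± 0.24, adjusted p = 0.87 for *chinmoRNAi* over *nab>prosRNAi* VNCs, with a 95% confidence interval of -0.61 to 0.49.

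Of the genes for ligand uptake and for the choice of the receiving daughter cell, neur and spdo were lower in *chinmoRNAi* VNCs. Neuralized (neur), a ubiquitin ligase that lets ligands be taken up by the signalling cell, had 6339, 5663 and 4469 normalized counts in *chinmoRNAi* VNCs, 6579, 6819.7 and 7914 in *chinmo* VNCs and 9059, 8429 and 7594 in *nab>prosRNAi* VNCs. The *chinmoRNAi* libraries lay below all others and the log2 fold change was -0.62 ± 0.15, adjusted p = 0.016. Without *nab>prosRNAi* replicate A or B the adjusted p of neur reached 0.071 at most, and it was 0.0092 at the lowest with each library left out in turn. Sanpodo (spdo), a membrane protein that promotes Notch signalling after asymmetric division, had 5465, 4509.9 and 4291 in *chinmoRNAi* VNCs, 8880.5, 7963 and 8135 in *chinmo* VNCs and 8020.4, 7644 and 8014 in *nab>prosRNAi* VNCs. The gap was wide and without overlap: spdo fell in *chinmoRNAi* VNCs (-0.74 ± 0.11, adjusted p = 0.0031), was higher in *chinmo* than in *chinmoRNAi* VNCs (0.81 ± 0.12, adjusted p = 0.0016), and differed by 0.08 ± 0.06, adjusted p = 0.39 between *chinmo* and *nab>prosRNAi* VNCs. The other ligase for ligands, mib1, was not called in any comparison, with values of 2994 to 4448 over the 9 libraries.

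**Figure D2:**
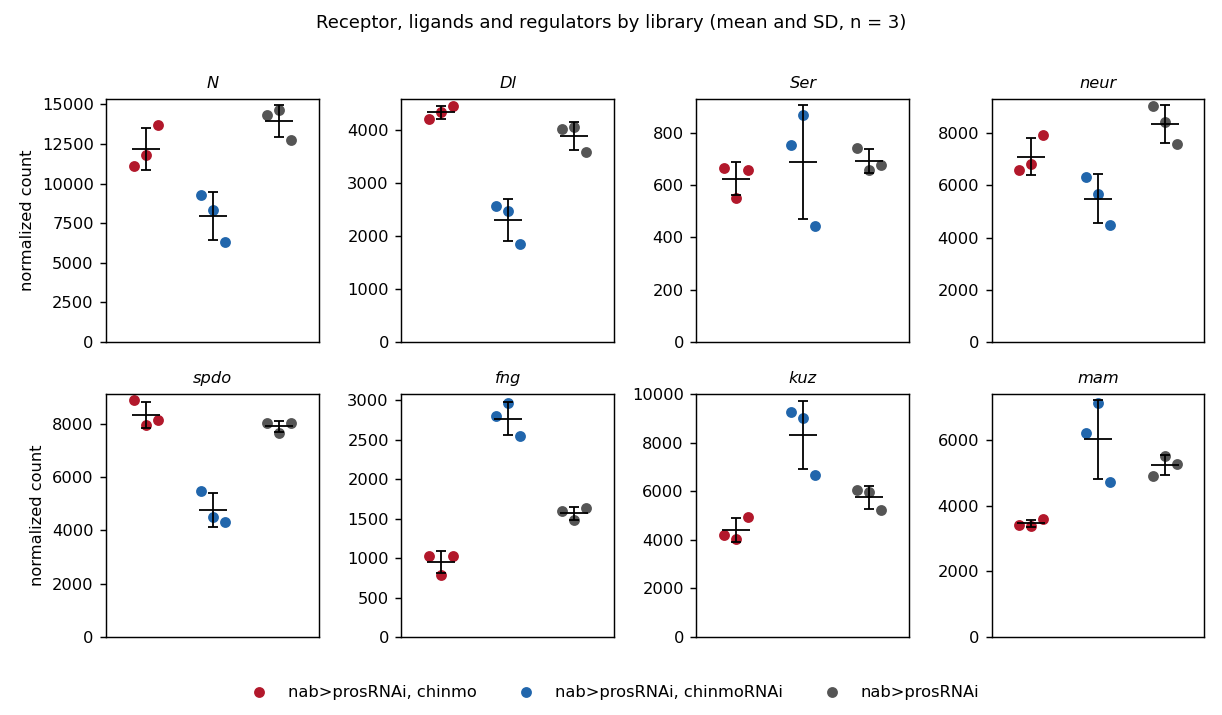
Normalized counts (vertical axes, from 0) of N, Dl, Ser, neur, spdo, fng, kuz and mam in each library, with *chinmo*, *chinmoRNAi* and *nab>prosRNAi* VNCs from left to right in each panel. Points are replicates A, B and C from left to right, and bars are the mean and SD (n = 3). N, Dl, neur and spdo are lowest in *chinmoRNAi* VNCs, whereas fng and kuz are highest there and lowest in *chinmo* VNCs.

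Among the genes that modify or cut the receptor, fng and kuz were higher in *chinmoRNAi* and lower in *chinmo* VNCs. Fringe (fng), a glycosyltransferase that tunes which ligand Notch answers to, had 1025, 784 and 1027 normalized counts in *chinmo* VNCs, 2793, 2957 and 2548 in *chinmoRNAi* VNCs and 1593, 1476 and 1634 in *nab>prosRNAi* VNCs. The 3 genotypes did not overlap, with *nab>prosRNAi* VNCs in the middle. Its log2 fold change was 0.82 ± 0.10, adjusted p = 0.0013 in *chinmoRNAi* and -0.74 ± 0.12, adjusted p = 0.0096 in *chinmo* VNCs over *nab>prosRNAi* VNCs, and -1.56 ± 0.14, adjusted p = 0.00030 for *chinmo* over *chinmoRNAi* VNCs. Both calls over *nab>prosRNAi* held with each library left out in turn. O-fut1, which adds the fucose that Fringe extends, had 3493, 3769 and 3660.4 in *chinmo*, 3562, 3202 and 3778 in *chinmoRNAi* and 4314, 4145 and 4055 in *nab>prosRNAi* VNCs. The *nab>prosRNAi* libraries were the highest, but the difference was small: -0.20 ± 0.05, adjusted p = 0.046 for *chinmo* and -0.25 ± 0.10, adjusted p = 0.088 for *chinmoRNAi* VNCs. The call for *chinmo* VNCs was lost with any 1 of the 6 libraries left out (adjusted p between 0.066 and 0.13).

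Kuzbanian (kuz), the metalloprotease of the first cut, had 4188, 4019 and 4948 normalized counts in *chinmo* VNCs, 9242, 8997 and 6684 in *chinmoRNAi* VNCs and 6046, 5964 and 5213 in *nab>prosRNAi* VNCs. As for fng, the 3 genotypes did not overlap and *nab>prosRNAi* VNCs lay in the middle. Its log2 fold change was 0.52 ± 0.14, adjusted p = 0.029 in *chinmoRNAi* VNCs, -0.39 ± 0.10, adjusted p = 0.037 in *chinmo* VNCs and -0.91 ± 0.15, adjusted p = 0.0029 between the 2, *chinmo* over *chinmoRNAi*. The *chinmoRNAi* call was lost without any 1 library other than *chinmoRNAi* replicate C (adjusted p between 0.0018 and 0.092 with each library left out in turn). The *chinmo* call was lost without *chinmo* replicate A or B or *nab>prosRNAi* replicate A or B (between 0.016 and 0.12). The second cut is made by the γ-secretase complex of Psn, nct, aph-1 and pen-2. Of these only aph-1 was called, with 1025, 1001 and 1063 in *chinmo* VNCs, 1344, 1316 and 1545 in *chinmoRNAi* VNCs and 1343, 1390.2 and 1319 in *nab>prosRNAi* VNCs. The *chinmo* libraries were below all others, with -0.39 ± 0.06, adjusted p = 0.0097 over *nab>prosRNAi* (adjusted p = 0.057 without *nab>prosRNAi* replicate B, and from 0.017 with each library left out in turn) and -0.44 ± 0.11, adjusted p = 0.014 over *chinmoRNAi* VNCs, where the call was lost without *chinmo* replicate A or B (0.011 to 0.055). Psn, the catalytic subunit, ranged from 3665 to 4334 and nct from 5374 to 6758 over the 9 libraries. In *chinmoRNAi* over *nab>prosRNAi* VNCs their 95% confidence intervals were -0.16 to 0.32 and -0.33 to 0.20 on the log2 scale.

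Among the nuclear components, mam was lower in *chinmo* VNCs, and Su(H) and gro in *chinmoRNAi* VNCs. Mastermind (mam), the co-activator, had 3407, 3391 and 3601 normalized counts in *chinmo* VNCs, 6214, 7126 and 4743 in *chinmoRNAi* VNCs and 4909, 5531 and 5289.7 in *nab>prosRNAi* VNCs. All *chinmo* libraries lay below all others while *chinmoRNAi* and *nab>prosRNAi* VNCs overlapped. It fell in *chinmo* VNCs, with -0.60 ± 0.06, adjusted p = 0.0024 over *nab>prosRNAi* VNCs, a call kept under every alternative tried, and -0.78 ± 0.15, adjusted p = 0.0055 over *chinmoRNAi* VNCs. Over *nab>prosRNAi* VNCs, *chinmoRNAi* VNCs gave 0.18 ± 0.15, adjusted p = 0.41, and without *chinmoRNAi* replicate C the value was 0.35 (adjusted p = 0.021).

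Su(H), the DNA-binding factor of the pathway, had 1180.2, 1108 and 887 normalized counts in *chinmoRNAi* VNCs, 1331, 1392 and 1318 in *chinmo* VNCs and 1463, 1543 and 1312 in *nab>prosRNAi* VNCs. Groucho (gro), the co-repressor of the E(spl) proteins and of Hairless, had 11991, 11806 and 9634 in *chinmoRNAi* VNCs, 13176, 12868 and 14813 in *chinmo* VNCs and 15159, 14946 and 13347 in *nab>prosRNAi* VNCs. For both genes the *chinmoRNAi* libraries were the lowest 3 of the 9. The changes were small and close to the threshold, at -0.45 ± 0.14, adjusted p = 0.040 for Su(H) and -0.38 ± 0.12, adjusted p = 0.047 for gro. Su(H) lost its call without *chinmoRNAi* replicate B or *nab>prosRNAi* replicate A or B (0.034 to 0.15 with each library left out in turn), and gro lost it without any 1 library other than *chinmoRNAi* replicate C (0.030 to 0.17). In *chinmo* over *nab>prosRNAi* VNCs the values were -0.09 ± 0.08, adjusted p = 0.43 for Su(H) and -0.09 ± 0.08, adjusted p = 0.46 for gro. Hairless (H), which holds Su(H) in a repressing form, was not called in any comparison.

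The E(spl) bHLH genes, the direct read-out of the pathway, did not move together. The 12 members that belong to the complex lie together on chromosome arm 3R in the Ensembl annotation of the BDGP6 assembly, in the order mdelta, mgamma, mbeta, malpha, m2, m3, m4, m5, m6, m7, m8 and gro. The 7 bHLH genes and the 4 Bearded genes among them have a single exon. Neighbouring genes of this cluster gave different responses, as the values of mgamma and mbeta show.

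E(spl)mgamma-HLH, the member best known in NBs, had 901, 711 and 865 normalized counts in *chinmoRNAi* VNCs, 1977, 2168 and 1606 in *chinmo* VNCs and 1805, 1730.5 and 1630.2 in *nab>prosRNAi* VNCs. The *chinmoRNAi* libraries were far below the rest, and *chinmo* and *nab>prosRNAi* VNCs overlapped. The log2 fold change was -1.07 ± 0.12, adjusted p = 0.0010 for *chinmoRNAi* VNCs, 0.14 ± 0.11, adjusted p = 0.41 for *chinmo* VNCs and 1.21 ± 0.15, adjusted p = 0.00099 for *chinmo* over *chinmoRNAi* VNCs. Its neighbour E(spl)mbeta-HLH had 2534, 2780.2 and 2801 in *chinmoRNAi* VNCs, 2034, 1602 and 1754 in *chinmo* VNCs and 1761, 1828 and 2268 in *nab>prosRNAi* VNCs. Here the *chinmoRNAi* libraries were the highest, with no overlap. E(spl)mbeta-HLH rose in *chinmoRNAi* VNCs (0.48 ± 0.12, adjusted p = 0.021), was lower in *chinmo* than in *chinmoRNAi* VNCs (-0.60 ± 0.12, adjusted p = 0.0055), and gave -0.12 ± 0.13, adjusted p = 0.55 for *chinmo* over *nab>prosRNAi* VNCs. The rise was not called without *chinmoRNAi* replicate B or *nab>prosRNAi* replicate A or B (0.011 to 0.096 with each library left out in turn).

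The ratio of E(spl)mgamma-HLH to E(spl)mbeta-HLH within a library was 0.36, 0.26 and 0.31 in *chinmoRNAi* VNCs, 0.97, 1.35 and 0.92 in *chinmo* VNCs and 1.03, 0.95 and 0.72 in *nab>prosRNAi* VNCs. These ratios compare 2 genes in the same RNA and do not depend on the size factors, and *chinmoRNAi* VNCs did not overlap the other genotypes.

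E(spl)m8-HLH had 403, 401 and 453 normalized counts in *chinmoRNAi* VNCs, 744, 696 and 556 in *chinmo* VNCs and 665, 646 and 586 in *nab>prosRNAi* VNCs. As for mgamma, the *chinmoRNAi* libraries were the lowest 3 of the 9, with -0.59 ± 0.12, adjusted p = 0.010 over *nab>prosRNAi* VNCs and 0.66 ± 0.15, adjusted p = 0.012 for *chinmo* over *chinmoRNAi* VNCs. The first call was lost without *nab>prosRNAi* replicate A or B (0.0048 to 0.054 with each library left out in turn) and the second without *chinmo* replicate A (0.0084 to 0.052). E(spl)m7-HLH had 134, 92.9 and 179 in *chinmo* VNCs, 328, 368 and 316 in *chinmoRNAi* VNCs and 334, 332 and 263 in *nab>prosRNAi* VNCs. This time it was the *chinmo* libraries that stood below all others, at -1.23 ± 0.26, adjusted p = 0.023 over *nab>prosRNAi* and -1.36 ± 0.26, adjusted p = 0.0054 over *chinmoRNAi* VNCs, and *chinmoRNAi* VNCs gave 0.13 ± 0.16, adjusted p = 0.58. Without *chinmo* replicate A or *nab>prosRNAi* replicate A or B the m7 call over *nab>prosRNAi* VNCs was lost (0.014 to 0.092), as were both m7 calls under quantile normalization (0.063 and 0.071).

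The other bHLH genes of the complex gave no call. E(spl)m3-HLH had 254, 146 and 267 normalized counts in *chinmo*, 257, 415 and 333 in *chinmoRNAi* and 228, 278 and 267 in *nab>prosRNAi* VNCs, with log2 fold changes of -0.26 ± 0.25, adjusted p = 0.51 for *chinmo* and 0.36 ± 0.20, adjusted p = 0.23 for *chinmoRNAi* VNCs. E(spl)mdelta-HLH had 56.1, 52.0 and 67.1 in *chinmo* VNCs, 46.5, 66.4 and 45.0 in *chinmoRNAi* VNCs and 59.4, 89.0 and 49.1 in *nab>prosRNAi* VNCs, with -0.13 ± 0.30, adjusted p = 0.79 for *chinmo* and -0.30 ± 0.31, adjusted p = 0.52 for *chinmoRNAi* VNCs. E(spl)m5-HLH was at very low counts, with 4.75, 3.32 and 4.63 in *chinmo* VNCs, 0, 24.1 and 19.7 in *chinmoRNAi* VNCs and 5.57, 17.8 and 9.98 in *nab>prosRNAi* VNCs. Its log2 fold change was -1.09 ± 0.53, adjusted p = 0.19 for *chinmo* and -0.46 ± 1.21, adjusted p = 0.80 for *chinmoRNAi* VNCs. The genotypes overlapped for these 3 genes, except that the *chinmo* libraries of m5 were just below those of *nab>prosRNAi* VNCs, and the sign of the m5 value in *chinmoRNAi* VNCs turned with the pseudocount.

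Per kilobase of the longest annotated transcript, the 7 bHLH genes together had 4738 to 5609 normalized counts in *chinmo*, 4681 to 5046 in *chinmoRNAi* and 5227 to 5403 in *nab>prosRNAi* VNCs. Of this sum mgamma held 37.2 to 45.9% in *chinmo*, 15.8 to 21.1% in *chinmoRNAi* and 33.1 to 37.9% in *nab>prosRNAi* VNCs, and mbeta held 31.6 to 37.8% in *chinmo* VNCs, 55.4 to 57.7% in *chinmoRNAi* VNCs and 34.4 to 42.9% in *nab>prosRNAi* VNCs. For E(spl)m8-HLH the share was 15.3 to 17.5% in *chinmo* VNCs, 10.6 to 11.7% in *chinmoRNAi* VNCs and 14.1 to 16.5% in *nab>prosRNAi* VNCs. The summed level in *chinmoRNAi* VNCs was thus slightly below that in *nab>prosRNAi* VNCs, and the shares of mgamma and mbeta did not overlap between those genotypes.

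Hey, a bHLH target outside the complex that marks newborn neurons receiving the Notch signal, had 55.1, 60.9 and 69.4 normalized counts in *chinmo* VNCs, 286, 265 and 214 in *chinmoRNAi* VNCs and 92.8, 137 and 98.1 in *nab>prosRNAi* VNCs. The 3 genotypes did not overlap. Hey rose in *chinmoRNAi* VNCs (log2 fold change 1.23 ± 0.22, adjusted p = 0.0055) and was lower in *chinmo* than in *chinmoRNAi* VNCs (-2.02 ± 0.22, adjusted p = 0.00062), while *chinmo* over *nab>prosRNAi* VNCs gave -0.80 ± 0.25, adjusted p = 0.066. Of the 6 neuron markers, 5 were called higher in *chinmoRNAi* over *nab>prosRNAi* VNCs, where 17.9% of all genes were. In *chinmo* over *nab>prosRNAi* VNCs 1 was called lower, where 8.26% of all genes were. The median log2 fold changes of these markers were 0.74 and -0.82, and none of the 6 was at 0 in any library. Relative to 1000 counts of their sum, Hey had 2.17 to 4.44 in *chinmo*, 3.43 to 4.58 in *chinmoRNAi* and 2.14 to 4.02 in *nab>prosRNAi* VNCs, ranges that overlapped.

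**Figure D3:**
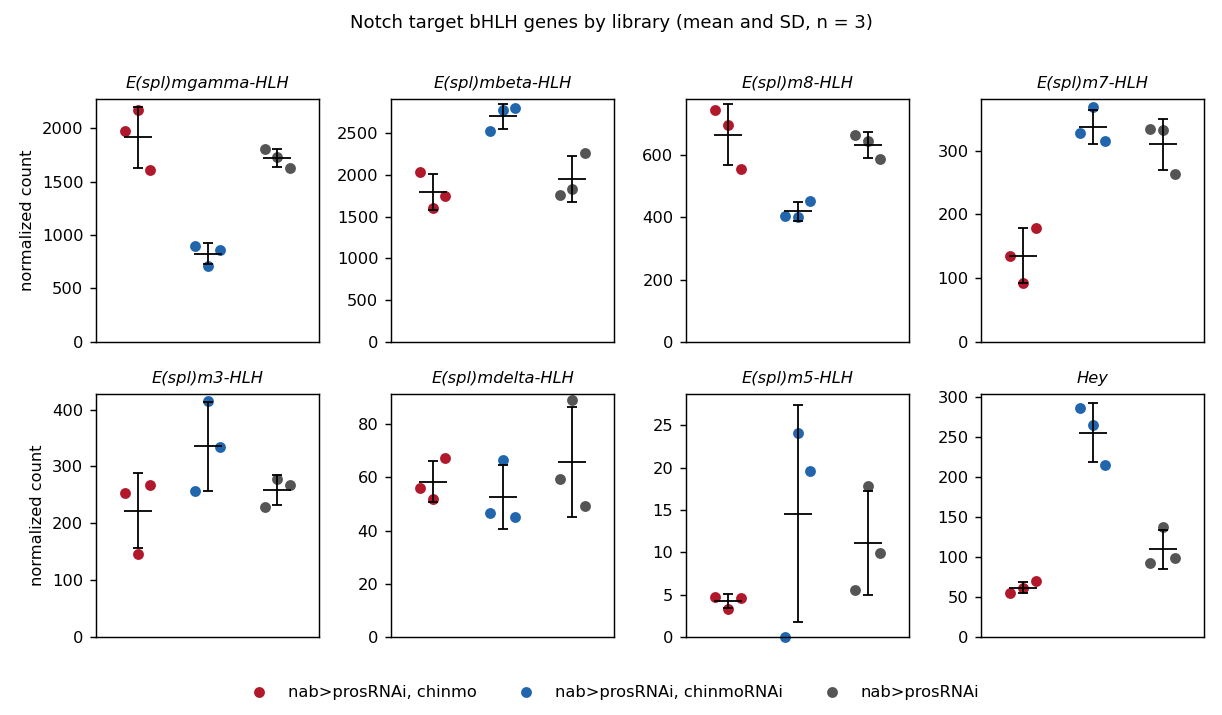
Normalized counts (vertical axes, from 0) of the 7 E(spl) bHLH genes and Hey in each library, with *chinmo*, *chinmoRNAi* and *nab>prosRNAi* VNCs from left to right in each panel. Points are replicates A, B and C, and bars are the mean and SD (n = 3). E(spl)mgamma-HLH and E(spl)m8-HLH are lowest in *chinmoRNAi* VNCs, E(spl)mbeta-HLH and Hey are highest there, and E(spl)m7-HLH is lowest in *chinmo* VNCs.

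The Bearded family encodes small proteins that bind Neuralized and hold it back. Of its 6 members tested, 4 were called lower in *chinmo* over *nab>prosRNAi* VNCs, where 8.26% of all genes were. The other 2 were lower at an unadjusted p under 0.05 by limma, where 18.6% of all genes were. E(spl)m6-BFM had 22.8, 13.3 and 42.8 normalized counts in *chinmo* VNCs, 283, 266 and 329.7 in *chinmoRNAi* VNCs and 77.9, 107 and 65.7 in *nab>prosRNAi* VNCs. No genotypes overlapped, and the span from the lowest to the highest group was the widest of all 34 members. Its log2 fold change was 1.82 ± 0.23, adjusted p = 0.0014 in *chinmoRNAi* and -1.75 ± 0.46, adjusted p = 0.043 in *chinmo* VNCs over *nab>prosRNAi* VNCs, and -3.57 ± 0.42, adjusted p = 0.00075 for *chinmo* over *chinmoRNAi* VNCs. The *chinmoRNAi* call held with each library left out in turn. The *chinmo* call over *nab>prosRNAi* held only without *chinmo* replicate C (0.019 to 0.14), and edgeR on recovered reads made neither this call nor that of E(spl)malpha-BFM.

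E(spl)malpha-BFM had 114, 65.3 and 217 normalized counts in *chinmo* VNCs, 430.3, 528 and 352 in *chinmoRNAi* VNCs and 409, 465 and 302 in *nab>prosRNAi* VNCs. E(spl)m4-BFM had 76.0, 66.4 and 72.9 in *chinmo* VNCs, 95.7, 192 and 96.5 in *chinmoRNAi* VNCs and 152, 251 and 175 in *nab>prosRNAi* VNCs. Tom, which lies on arm 3L outside the complex, had 158, 66.4 and 112 in *chinmo* VNCs, 288, 444 and 272 in *chinmoRNAi* VNCs and 282, 319 and 224 in *nab>prosRNAi* VNCs. For these 3 genes every *chinmo* library was below every other library, while *chinmoRNAi* and *nab>prosRNAi* VNCs overlapped. The fall in *chinmo* over *nab>prosRNAi* VNCs was -1.71 ± 0.43, adjusted p = 0.038 for malpha, -1.38 ± 0.24, adjusted p = 0.012 for m4 and -1.36 ± 0.33, adjusted p = 0.035 for Tom. The m4 call was lost without *nab>prosRNAi* replicate B (0.024 to 0.051). The malpha call held only without *chinmo* replicate C (0.011 to 0.12) and the Tom call only without *chinmo* replicate A (0.029 to 0.12). In *chinmoRNAi* over *nab>prosRNAi* VNCs the values were 0.16 ± 0.22, adjusted p = 0.61 for malpha, -0.63 ± 0.33, adjusted p = 0.18 for m4 and 0.26 ± 0.23, adjusted p = 0.44 for Tom.

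E(spl)m2-BFM had 62.7, 22.1 and 99.5 normalized counts in *chinmo* VNCs, 172, 231 and 188 in *chinmoRNAi* VNCs and 139, 189 and 131 in *nab>prosRNAi* VNCs. It was lower in *chinmo* than in *chinmoRNAi* VNCs (-1.89 ± 0.52, adjusted p = 0.022; 0.010 to 0.069 with each library left out, lost without *chinmoRNAi* replicate A or B), and over *nab>prosRNAi* VNCs the value was -1.53 ± 0.53, adjusted p = 0.089. Brd, the founding member, gave -0.83 ± 0.30, adjusted p = 0.10 in *chinmo* VNCs and -0.69 ± 0.37, adjusted p = 0.20 in *chinmoRNAi* VNCs, at 40.9 to 121 normalized counts over the 9 libraries. BobA had 0 to 3.32 normalized counts and was not tested, and since the Bob genes are near-identical copies its reads may have been lost or divided. Within *chinmo* VNCs, malpha, m2, m3, m6 and m7 were all lowest in replicate B and highest in replicate C.

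**Figure D4:**
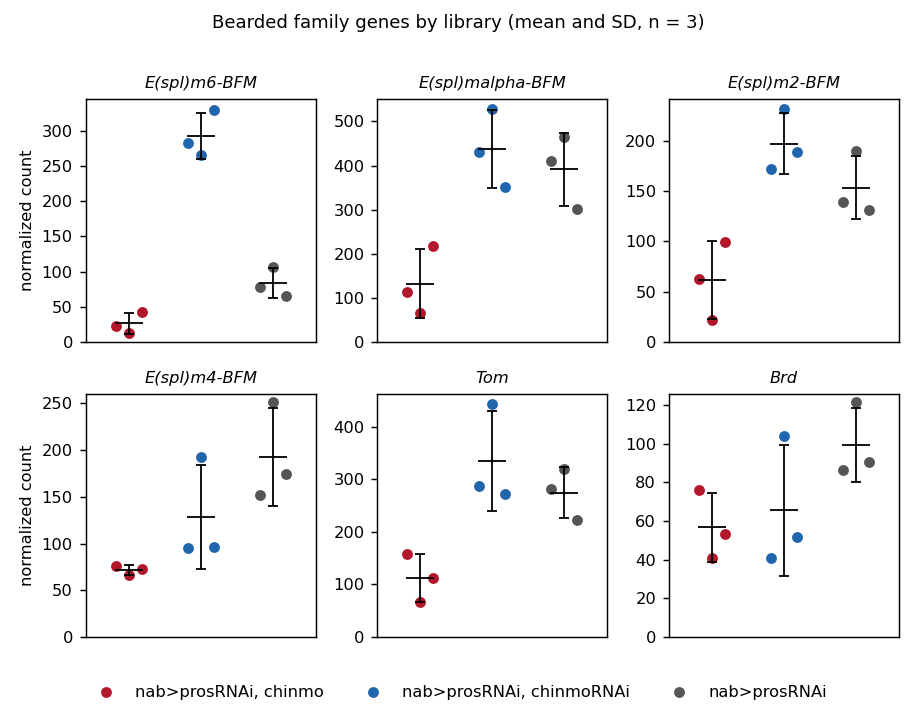
Normalized counts (vertical axes, from 0) of 6 Bearded family genes in each library, with *chinmo*, *chinmoRNAi* and *nab>prosRNAi* VNCs from left to right in each panel. Points are replicates A, B and C, and bars are the mean and SD (n = 3). All 6 genes have their lowest mean in *chinmo* VNCs, and E(spl)m6-BFM is raised in *chinmoRNAi* VNCs.

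Markers of glia and of other tissues also differed between genotypes, and several of the imaginal disc markers are also expressed in VNC cells. Of 6 imaginal disc markers, none at 0 in any library, 4 were called lower in *chinmo* and 4 higher in *chinmoRNAi* over *nab>prosRNAi* VNCs, with sums of 1128.5 to 1743 normalized counts in *chinmo* VNCs, 3899 to 6551 in *chinmoRNAi* VNCs and 2355 to 2615 in *nab>prosRNAi* VNCs. For 4 hemocyte markers the sums were 2832 to 7711 in *chinmo* VNCs, 9088 to 18290 in *chinmoRNAi* VNCs and 5621 to 11172 in *nab>prosRNAi* VNCs, and 3 were called higher in *chinmoRNAi* and 0 called in *chinmo* VNCs. Of the 6 Bearded family members tested, 1 was called higher in *chinmoRNAi* VNCs, where 17.9% of all genes were. In *chinmo* VNCs 4 were called lower, where 8.26% of all genes were. Salivary gland markers summed to 27.7 to 112 in *chinmo* VNCs, 39.0 to 362 in *chinmoRNAi* VNCs and 212 to 807 in *nab>prosRNAi* VNCs, with 3 of 5 called lower in *chinmo* and 2 of 5 in *chinmoRNAi* VNCs, and Sgs1, Sgs3 and Sgs5 at 0 in at least 1 library. Fat body markers summed to 11996 to 115829 in *chinmo* VNCs, 173975 to 447876 in *chinmoRNAi* VNCs and 54293 to 189434 in *nab>prosRNAi* VNCs, with 0 of 5 called in *chinmo* and 1 of 5 called higher in *chinmoRNAi* VNCs. Of 5 muscle markers (762 to 4493 in *chinmo* VNCs, 3329 to 3872 in *chinmoRNAi* VNCs and 3400.3 to 8196 in *nab>prosRNAi* VNCs), 0 were called in *chinmo* VNCs and 1 was lower in *chinmoRNAi* VNCs. Of 6 glia markers (25054 to 38511 in *chinmo* VNCs, 35757 to 42608 in *chinmoRNAi* VNCs and 26373 to 38142 in *nab>prosRNAi* VNCs), 1 was higher and 1 lower in *chinmo* VNCs, and 4 were higher and 1 lower in *chinmoRNAi* VNCs. The part of these tissues in the Bearded family and m7 values was not tested.

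In all, 14 of the 35 were called in none of the comparisons, of which 13 were tested. Beyond those already named, dx, an E3 ligase of the pathway, had 1496, 1538 and 1143 normalized counts in *chinmoRNAi* VNCs, against 1828, 1763 and 1631 in *nab>prosRNAi* VNCs. For sno, a nuclear cofactor, the values were 4668, 4619 and 3609 in *chinmoRNAi* VNCs, against 5708, 5659 and 5152 in *nab>prosRNAi* VNCs. The *chinmoRNAi* libraries lay below for both, at -0.33 ± 0.14, adjusted p = 0.10 for dx and -0.37 ± 0.12, adjusted p = 0.058 for sno, short of the threshold. Nak, a kinase of endocytosis, ranged from 2629 to 3662 and H from 2815 to 4446 over the 9 libraries. For pen-2, *chinmoRNAi* replicate C stood apart at 1029, against 560 and 466 in replicates A and B.

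The 2 steps of Chinmo level could also be compared with each other, although they were of unequal size. The log2 fold change of chinmo itself over *nab>prosRNAi* VNCs was -0.66 ± 0.13 in *chinmoRNAi* and 3.24 ± 0.09 in *chinmo* VNCs. The values below are therefore not differences per equal step of Chinmo. For each gene, the log2 change of *chinmo* over *nab>prosRNAi* VNCs less that of *nab>prosRNAi* over *chinmoRNAi* VNCs was tested in the 9 libraries together, so a negative value means that the level gained less, or lost more, at the step to overexpression. Of the 34 members tested, 2 were called negative and 0 positive, where 3.28% and 3.64% of all genes were called. They were N (-1.02 ± 0.25, adjusted p = 0.042) and E(spl)mgamma-HLH (-0.92 ± 0.23, adjusted p = 0.044). Negative values were not particular to these members. Of the 6 NB markers, 5 were called negative as well (83.3%), with a median of -0.98 for the 6. Of the 6 neuron markers 0 were called, with a median of -0.09. At an unadjusted p under 0.05, 15 members were negative and 0 positive, where 11% and 11.1% of all genes were. By edgeR on recovered reads 4 members were called negative and 0 positive, where 4.48% and 3.2% of all genes were called. With each library left out in turn N ranged from -1.14 to -0.86 (adjusted p 0.015 to 0.20) and mgamma from -1.02 to -0.80 (0.030 to 0.19), and both were lost without any 1 *nab>prosRNAi* library, *chinmo* replicate A or *chinmoRNAi* replicate B. N was also lost without *chinmo* replicate B, and mgamma without *chinmo* replicate C or *chinmoRNAi* replicate A.

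All 6 NB markers were called lower in *chinmoRNAi* VNCs, where 8 members were lower. Relative to 1000 counts of the summed NB markers, N had 101 to 119 in *chinmo* VNCs, 108 to 129.9 in *chinmoRNAi* VNCs and 108 to 116 in *nab>prosRNAi* VNCs. On this scale E(spl)mgamma-HLH had 13.7 to 21.8 in *chinmo* VNCs, 11.1 to 14.8 in *chinmoRNAi* VNCs and 13.7 to 13.8 in *nab>prosRNAi* VNCs, and Dl had 37.8 to 43.6 in *chinmo* VNCs, 31.4 to 38.7 in *chinmoRNAi* VNCs and 30.4 to 32.1 in *nab>prosRNAi* VNCs. For these 3 genes *chinmoRNAi* and *nab>prosRNAi* VNCs overlapped. The other 5 lower members stood above *nab>prosRNAi* VNCs on this scale without overlap, so they were reduced less than the sum of the NB markers. Relative to it, gro had 158 to 185 in *chinmoRNAi* VNCs and 113 to 118 in *nab>prosRNAi* VNCs, Su(H) 15.2 to 17.3 in *chinmoRNAi* VNCs and 11.1 to 12.2 in *nab>prosRNAi* VNCs, and neur 76.5 to 88.6 in *chinmoRNAi* VNCs and 64.4 to 68.5 in *nab>prosRNAi* VNCs. For spdo the values were 70.6 to 73.4 in *chinmoRNAi* VNCs and 60.5 to 67.9 in *nab>prosRNAi* VNCs, and for E(spl)m8-HLH 5.32 to 7.76 in *chinmoRNAi* VNCs and 4.97 to 5.11 in *nab>prosRNAi* VNCs. E(spl)mbeta-HLH stayed apart in *chinmoRNAi* VNCs, with 14.9 to 18.5 in *chinmo* VNCs, 33.4 to 47.9 in *chinmoRNAi* VNCs and 13.3 to 19.2 in *nab>prosRNAi* VNCs. So did fng, with 7.88 to 9.31 in *chinmo* VNCs, 36.8 to 46.3 in *chinmoRNAi* VNCs and 11.7 to 13.9 in *nab>prosRNAi* VNCs. Members with no call stood apart as well, since the sum itself was lower in *chinmoRNAi* VNCs. Among them, Psn had 57.1 to 67.3 in *chinmoRNAi* and 29.8 to 32.2 in *nab>prosRNAi* VNCs, and nct 89.1 to 103 and 48.7 to 54.5. Standing apart on this scale is thus not particular to mbeta and fng. Per 1000 counts of the summed neuron markers, fng overlapped across genotypes, with 28.0 to 65.7 in *chinmo* VNCs, 38.4 to 45.1 in *chinmoRNAi* VNCs and 35.6 to 45.2 in *nab>prosRNAi* VNCs. On that scale mbeta had 57.2 to 112 in *chinmo* VNCs, 36.1 to 49.6 in *chinmoRNAi* VNCs and 49.4 to 53.6 in *nab>prosRNAi* VNCs. A sum of markers is not a count of cells, and the NB markers did not move together in *chinmo* VNCs. These ratios, worked out after the levels were known, carry no test. The part of NB and neuron numbers in the changes was not tested.

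NB factors linked to Notch signalling, which are not among the 35, were lower in *chinmoRNAi* VNCs as well. All 6 tested, dpn, klu, grh, dm (Myc), wor and ase, of which dpn, grh, wor and ase are also among the NB markers above, were called lower in *chinmoRNAi* VNCs and none in *chinmo* VNCs over *nab>prosRNAi* VNCs, with median log2 fold changes of -0.93 and 0.19. Deadpan (dpn), a bHLH repressor of the same family as the E(spl) proteins, had 7068, 5345 and 5583 normalized counts in *chinmoRNAi* VNCs, 15411, 13934 and 13758 in *chinmo* VNCs and 13833, 11849 and 12727 in *nab>prosRNAi* VNCs. The *chinmoRNAi* libraries were the lowest, and the log2 fold change was -1.10 ± 0.13, adjusted p = 0.0012 over *nab>prosRNAi* VNCs.

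Of 35 further pathway genes listed, 34 were tested, and 0 were called higher and 6 lower in *chinmo* VNCs, and 6 higher and 5 lower in *chinmoRNAi* VNCs, both over *nab>prosRNAi* VNCs. In *chinmoRNAi* VNCs these are 17.6% and 14.7%, close to the 17.9% and 14.1% of all genes. In *chinmo* VNCs 17.6% were lower, where 8.26% of all genes were and 9.74% were higher. The lower ones there included Tace, another metalloprotease (-1.04 ± 0.16, adjusted p = 0.0083), and insv, a co-repressor that binds Su(H) (-0.50 ± 0.08, adjusted p = 0.0078). In *chinmoRNAi* VNCs, big brain (bib) rose by 1.33 ± 0.20, adjusted p = 0.0030 and the epsin lqf, which helps ligand uptake, by 1.09 ± 0.10, adjusted p = 0.00041. Numb (numb), the inhibitor of Notch in 1 daughter cell, fell there (-0.69 ± 0.14, adjusted p = 0.0082), as did the co-repressor CtBP (-0.52 ± 0.12, adjusted p = 0.013) and insv (-0.65 ± 0.12, adjusted p = 0.0058). The median log2 fold change of these genes was -0.08 in *chinmo* and -0.07 in *chinmoRNAi* VNCs. For the 34 members tested the medians were -0.19 and -0.09, and for all genes tested -0.02 and 0.05.

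Compared between genes per kilobase of the longest transcript, members spanned a wide range in *nab>prosRNAi* VNCs. The highest were spdo with 3782 ± 103 normalized counts per kb (SD, n = 3) and gro with 3644 ± 249, followed by O-fut1 with 2657 ± 83.9 and nct with 2347 ± 38.9. The levels of spdo and gro did not differ beyond their spread, and with the shortest annotated transcript gro came to 5017. E(spl)mbeta-HLH with 1996 ± 282, Psn with 1900.3 ± 101 and E(spl)mgamma-HLH with 1890.2 ± 96.5 were also within their spread of each other. N had 1371 ± 99.6 and Dl 736 ± 49.6. At the low end stood Ser with 119 ± 7.68, E(spl)m6-BFM with 73.4 ± 18.6, E(spl)mdelta-HLH with 65.0 ± 20.5, Hey with 64.8 ± 14.4 and E(spl)m5-HLH with 12.6 ± 7.02, of which m6, mdelta and Hey lay within their spread of each other. Spdo in *chinmoRNAi* VNCs had 2279 ± 299, and mbeta there had 2766 ± 152 and mgamma 906 ± 110.3.

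The *chinmoRNAi* libraries differed from each other with transcript length. For each library, the log2 deviation of every gene from the mean of the other libraries of its genotype was taken. Across all genes this deviation followed transcript length with a Spearman coefficient of 0.28, 0.49 and -0.50 in *chinmoRNAi* replicates A, B and C. This is a description in which genes are not replicates, and the other 6 libraries were within 0.085 of 0. In replicate C the 19 members over 1500 bases had a median deviation of -0.40 and the 15 under 1500 bases one of 0.03. Replicate C was the lowest *chinmoRNAi* library for N, Dl, kuz, mam, neur and gro. Without it, 6 members were called higher and 10 lower in *chinmoRNAi* VNCs over *nab>prosRNAi* VNCs. Over all genes 2473 were higher and 2294 lower without it, against 2048 and 1617 with no library left out. In the fit without it N was -0.67 (adjusted p = 0.0023, and at most 0.035 with each library left out in turn) and kuz 0.67. With the length trend removed from every library, 13 members and 2831 of all genes were called lower, N was -1.01 and kuz 0.38. Its part in any single value was not tested.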

How the data were processed

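Libraries were prepared from poly-A RNA of whole VNCs, kept the strand, and were read from a single end. The deposited table holds read counts per gene that the authors divided by DESeq size factors, so its values are a normalized signal and not raw reads. Per the labels and the study's methods, reads were aligned to dm3 with TopHat2 2.0.9 and Bowtie2 2.1.0 and counted with HTSeq 0.5.3p9, by strand and on uniquely assigned genes, so reads that fit near-identical genes such as the Bob copies may be lost. The DESeq version is given as 1.2.5 in the labels and differs in the methods. Of the values, 100% were whole multiples of 1 read per library within 0.01, so reads were recovered for count tests and depth. All 9 libraries were mapped to a genotype by their labels, and 1415 of the 15340 genes had no reads.

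Values were tested as log2(value + 1) with limma 3.58.1 in R 4.3.3, with a mean-variance trend, for genes whose values sum to at least 15 over the 6 libraries compared, and p-values were adjusted by Benjamini-Hochberg over all genes tested. Fold changes of low genes are understated by the pseudocount. The difference between the 2 steps was tested in the 9 libraries together. Replicates are pools of brains, so p-values measure the spread between pools. Alternatives were pseudocounts of 0.5 and 10, other filters, TMM, median-of-ratios and quantile scaling, no trend, all 9 libraries, a replicate block, removal of a transcript length trend (lowess, span 0.3), edgeR 4.0.16 or DESeq2 1.42.0 on the recovered reads, and leaving out 1 library at a time. The tests were also run on simulated data with known changes. Chromosome arms, gene order and transcript lengths come from the Ensembl annotation of BDGP6, which is not the build of the reads, and 35 of 35 members had a length there. Named genes are all members with a call and, by range, the rest. The members, marker lists and tests were chosen with earlier results of these data known.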

Additional observations from a re-analysis of the deposited data

How the results depend on the processing

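All calls of members kept their direction under every alternative. With each library left out in turn, 7 of 13 held in *chinmoRNAi* over *nab>prosRNAi* VNCs, 2 of 10 in *chinmo* over *nab>prosRNAi* VNCs, 12 of 16 in *chinmo* over *chinmoRNAi* VNCs and 0 of 2 for the difference between the steps. Both the 3 libraries a genotype and, for genes of low counts such as Hey, E(spl)mdelta-HLH, E(spl)m5-HLH, BobA and several Bearded genes, the number of reads limit the precision. Without the mean-variance trend the calls of E(spl)mbeta-HLH, Su(H), gro and kuz in *chinmoRNAi* and of E(spl)m6-BFM, E(spl)malpha-BFM, O-fut1, Tom and kuz in *chinmo* over *nab>prosRNAi* VNCs were lost. With no filter gro, E(spl)m6-BFM and O-fut1 lost theirs, with quantile normalization E(spl)m6-BFM, E(spl)malpha-BFM and E(spl)m7-HLH, and with the length trend removed or all 9 libraries O-fut1 and kuz in *chinmo* VNCs. In *chinmo* over *chinmoRNAi* VNCs, aph-1 was lost with TMM and by edgeR, and E(spl)m2-BFM and E(spl)m7-HLH with quantile normalization. The causes of these changes and of those below were not tested.

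In *chinmoRNAi* over *nab>prosRNAi* VNCs, 5 members were higher and 8 lower. There were 3 higher without the mean-variance trend and 13 lower with the length trend removed, and leaving out libraries gave 3 to 6 higher and 4 to 10 lower. Over all genes, 2048 were higher and 1617 lower, against 2831 lower with the length trend removed, and 1285 to 2473 higher and 697 to 2294 lower with a library left out. In *chinmo* over *nab>prosRNAi* VNCs, 0 members were higher and 10 lower. There was 1 higher with the length trend removed and 1 by DESeq2, 5 were lower without the mean-variance trend, and leaving out libraries gave 2 to 9 lower. Over all genes, 1077 were higher and 913 lower, against 667 and 547 without the mean-variance trend, 638 higher in a fit of all 9 libraries, and 1687 and 1486 by DESeq2, with 415 to 885 higher and 234 to 874 lower with a library left out. In *chinmo* over *chinmoRNAi* VNCs, 5 members were higher, against 9 with TMM, in the fit of all 9 libraries and by edgeR. There were 8 with quantile normalization and 13 with the length trend removed. Over all genes, 2305 were higher, against 2954 with TMM, 2662 in the fit of all 9 libraries and 2857 by edgeR. For the difference between the steps, 2 members were lower, against 4 with a mean of at least 10 and by edgeR, 0 without the mean-variance trend, 8 with the length trend removed and 0 to 7 with a library left out. Over all genes it had 432 higher and 389 lower, against 818 and 793 with the length trend removed and 204 lower without the mean-variance trend, with 126 to 900.0 higher and 54 to 854 lower with a library left out.

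Samples that share a letter did not deviate together: the correlations across genes were 0.20, 0.01 and 0.07 for *chinmoRNAi* with *nab>prosRNAi*, -0.35, 0.02 and -0.35 for *chinmo* with *nab>prosRNAi*, and 0.17, -0.01 and 0.12 for *chinmo* with *chinmoRNAi* libraries. With the letter as a replicate block, 1 member was lower in *chinmo* over *nab>prosRNAi* VNCs (mam), 0 for the difference between the steps, and 5 higher and 9 lower in *chinmoRNAi* over *nab>prosRNAi* VNCs, while over all genes the replicate block gave 125 higher and 45 lower in *chinmo* VNCs and 175 and 110.0 for the steps.

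Scaling moved the balance of all genes in *chinmo* over *chinmoRNAi* VNCs, where 2305 were higher and 2626 lower, against 2954 and 2381 with TMM, 2945 and 2186 with quantile normalization and 3448 and 2689 with the length trend removed. In *chinmoRNAi* over *nab>prosRNAi* VNCs quantile normalization gave 1734 and 2188, and in *chinmo* over *nab>prosRNAi* VNCs edgeR gave 1336 and 744. Quantile normalization set the median of all genes at -0.08 in *chinmoRNAi* over *nab>prosRNAi* VNCs, where it was 0.05, and at 0.11 in *chinmo* over *chinmoRNAi* VNCs, where it was -0.03.

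Signs turned only for members with no call. E(spl)m5-HLH in *chinmoRNAi* over *nab>prosRNAi* VNCs was 0.075 with a pseudocount of 10, 0.39 by edgeR, 0.37 by DESeq2 and -1.28 to 1.04 with a library left out, and in *chinmo* over *chinmoRNAi* VNCs -2.13 to 0.19. E(spl)m7-HLH in *chinmoRNAi* over *nab>prosRNAi* VNCs was -0.19 with quantile normalization. Ser was -0.26 to 0.23 with a library left out in *chinmoRNAi* over *nab>prosRNAi* VNCs, and in *chinmo* over *chinmoRNAi* VNCs it was 0.022 with TMM, 0.21 with quantile normalization, 0.18 with the length trend removed and -0.38 to 0.10 with a library left out. In *chinmo* over *nab>prosRNAi* VNCs, E(spl)mdelta-HLH was 0.11 with quantile normalization and -0.32 to 0.10 with a library left out, E(spl)m8-HLH -0.021 to 0.19 and E(spl)m3-HLH -0.41 to 0.019. A second motif spelling for Su(H) sites was not run because no promoter sequence was held.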
